A study of Mus musculus with 24 samples.

Results

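Lysosomal enzymes and membrane proteins were followed as a set of 52 genes in macrophages, the phagocytes of tissues, that were differentiated in culture from mouse tibial marrow. The set was chosen by name, as soluble hydrolases, membrane proteins, proton pump subunits and transcription factors of the lysosome, and all 52 symbols were found among the 54532 genes of the count table. Polyadenylated RNA was sequenced in 24 libraries of C57BL/6 mice aged 2 to 3 months, with 3 libraries in each of 8 groups. Macrophages of 4 genotypes were compared after 4 hours with 10 ng/ml TGF-β1, a cytokine whose receptors phosphorylate SMAD2 and SMAD3, and without treatment. MyS3KO macrophages carried Smad3 fl/fl with LyzM-Cre, and Smad3fl macrophages carried Smad3 fl/fl alone. MyS2KO macrophages carried Smad2 fl/fl with LyzM-Cre, and Smad2fl macrophages carried Smad2 fl/fl alone. LyzM-Cre expresses the recombinase from the lysozyme gene Lyz2, so recombination depends on the myeloid promoter and need not be complete in every cell. All 8 groups shared culture with IL-3-containing medium and CSF-1 and then serum starvation. The labels do not say whether the 3 libraries of a group came from separate mice, so p-values measure only the spread between these libraries, which may be technical.

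Lysosomes are acidic organelles in which imported and engulfed material is broken down, and macrophages are rich in them. Hydrolases are made as precursors, carried to the lysosome and activated there at low pH, which the vacuolar proton pump maintains, while heavily glycosylated membrane proteins line the inner face of the limiting membrane. Many of these genes carry a short palindrome near the start site that the transcription factors TFEB and TFE3 bind when they enter the nucleus, a step controlled by mTORC1 at the lysosomal surface.

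Libraries held 16.9 to 24.9 M counted reads (M, 1e6), and the least covered of the 52 genes, Ctsf, had 4974 reads over all libraries. Values are given as CPM, counts per 1e6 reads of a library total scaled by TMM (a factor from edgeR that balances libraries for composition). Smad3 RNA averaged 268 ± 19.8 CPM in MyS3KO and 415 ± 23.1 in Smad3fl with TGF-β1, and 184 ± 24 in MyS3KO and 424 ± 48.2 in Smad3fl without it (SD, n = 3 each). Smad2 RNA was 40.5 ± 2.90 CPM in untreated libraries labelled MyS2KO and 42.2 ± 2.98 in untreated Smad2fl, so the count of the whole gene did not separate that knockout from its control. The lines also differed in Smad3 itself, which averaged 424 CPM in untreated Smad3fl and 41.5 in untreated Smad2fl. The defining macrophage markers Adgre1, Csf1r, Cd68, Mertk, Fcgr1, Itgam, Cd14 and Lyz2 were all above 1 CPM in every group. Of markers of other cells, those of osteoclasts, which form from the same precursors, summed to 78 to 160 CPM over all libraries, those of endothelial cells to 32.5 to 168 CPM, those of dendritic cells to 14.1 to 39.8 CPM, those of neutrophils to 0.705 to 16.8 CPM and those of fibroblasts to at most 2.29 CPM. Lyz2, whose locus carries the Cre in the knockouts, averaged 2895 ± 1302 CPM in MyS3KO, 4047 ± 2403 in Smad3fl, 6075 ± 760.5 in MyS2KO and 11230 ± 399.5 in Smad2fl untreated (SD, n = 3 each). With TGF-β1 it averaged 2620 ± 1663, 2729 ± 904.3, 4218 ± 151.9 and 8197 ± 735.6 CPM in the same order. Untreated Smad3fl library 3 stood apart from its companions in the genes followed here: its values were a median 0.43 log2 above theirs, higher for 48 of the 52 genes, where all tested genes had a median of 0.01 and 50.9% were higher.

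Between genes, levels were compared with the deposited FPKM, which are per length of transcript and per library total. Averaged over the 24 libraries, the cysteine protease Ctsb led with 5668 FPKM, followed by the progranulin gene Grn with 5438 and the saposin precursor Psap with 3436, and these 3 held 42.7% of the set's summed FPKM. At the other end stood the heparan sulfatase Sgsh with 7.52 FPKM and the cysteine protease Ctsf with 5.10. In counts, the 52 genes together took 6.44 ± 0.086% of reads in MyS3KO, 4.05 ± 0.13% in Smad3fl, 5.86 ± 0.37% in MyS2KO and 5.73 ± 0.22% in Smad2fl with TGF-β1 (SD, n = 3 each). Without treatment the shares were 6.22 ± 0.57% in MyS3KO, 4.30 ± 0.69% in Smad3fl, 5.99 ± 0.34% in MyS2KO and 6.14 ± 0.21% in Smad2fl. Smad3fl was thus the group with the smallest lysosomal share of RNA in either treatment. In bulk RNA, fewer cells with high lysosomal expression and less lysosomal RNA per cell cannot be told apart.

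**Figure D1:**
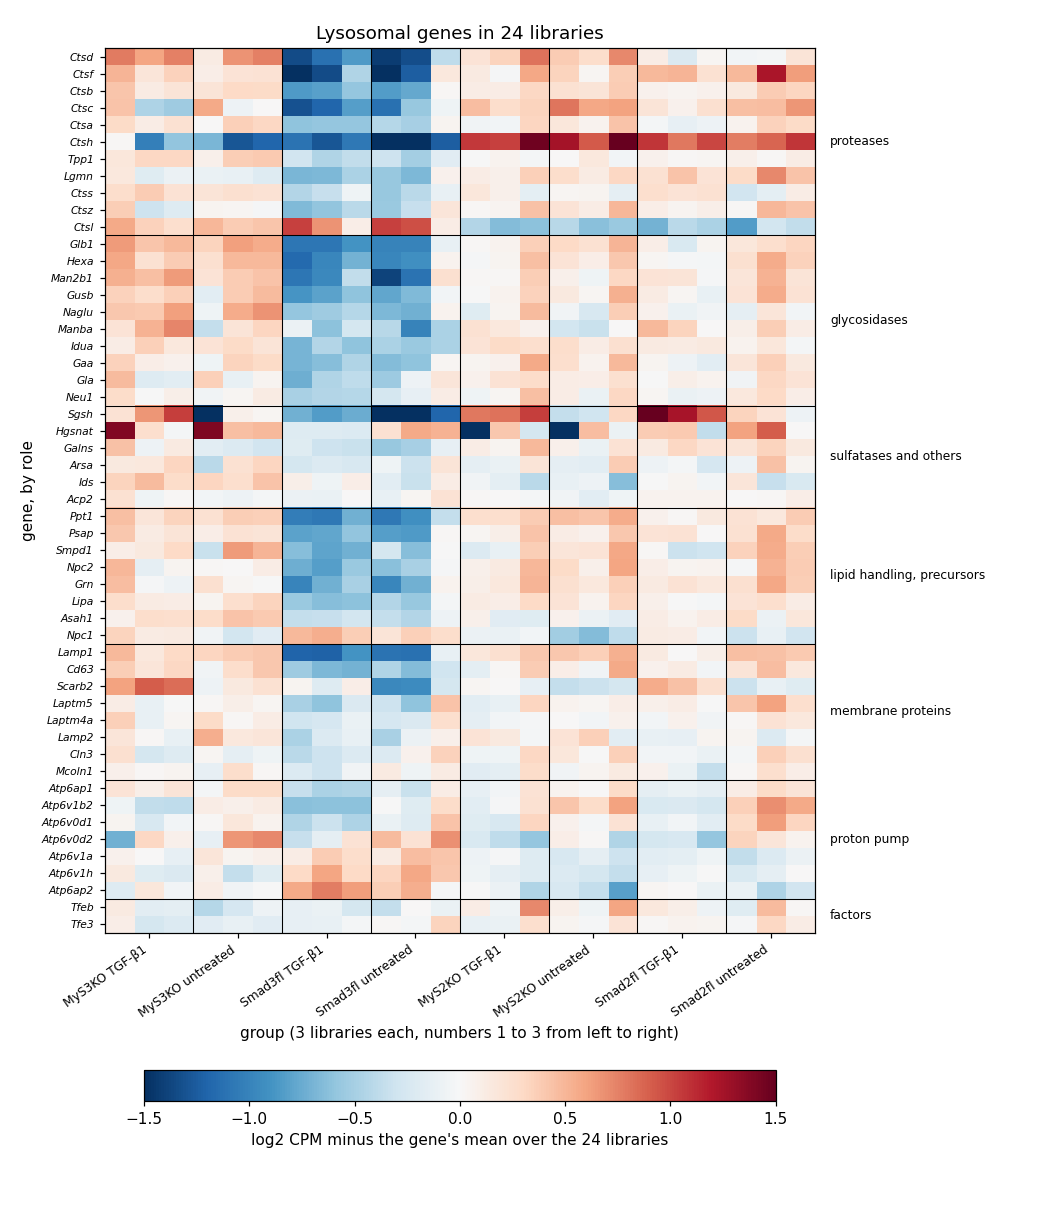
Log2 CPM of the 52 genes (rows, by role) in each of the 24 libraries (columns, 3 per group), with each gene's mean over all libraries subtracted. Smad3fl libraries are blue for most enzymes and untreated Smad3fl library 3 much less so, while Npc1, Atp6v1h and Atp6ap2 run the other way.

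Start-site regions were searched for the sequence CACGTG, the core letters bound by TFEB and TFE3 and also by other E-box factors. The motif reads the same on both strands. Of the 43 genes with a promoter in the RefSeq table (GRCm38.p6), 15 carried it within 250 bases upstream of a start, 34.9%, and 1854 of 27025 genes carried it in all, 6.86%. The longer form TCACGTGA, which contains CACGTG, was found in 6 of the 43 (14.0%) and in 245 of the 27025 (0.907%). The sets are unlike: all 43 passed the filter on low counts, while the 27025 include genes not among the 14261 tested. The share among tested genes was not counted. Lamp1, whose product is an abundant glycoprotein of the lysosomal membrane, carried 4 copies within 80 bases of its start, printed first because it is the window with most copies shown and the gene was called in both treatments of the Smad3 line (chr8:13159081-13159160, plus strand). The other stretches, of at most 30 bases, are shown because their genes carry the motif and differ in their response: Ctsd (chr7:142387908-142387937, minus strand), Glb1 (chr9:114401018-114401047, plus strand), Ctsa (chr2:164833749-164833772, plus strand) and Sgsh (chr11:119355522-119355551, minus strand) were called in comparisons below, and Mcoln1 (chr8:3500462-3500491, plus strand) was not called in any. All stretches lie upstream of a RefSeq start, but not of every annotated start. Those of Ctsa, Sgsh, Ctsd and Mcoln1 overlap 3, 2, 1 and 1 exons of GENCODE, another gene annotation. By the deposited gene coordinates, the stretches of Ctsa, Ctsd and Mcoln1 lie inside the gene and that of Sgsh spans its start. Capitals mark CACGTG, and each stretch is written 5′ to 3′ on the strand of its gene.
Lamp1: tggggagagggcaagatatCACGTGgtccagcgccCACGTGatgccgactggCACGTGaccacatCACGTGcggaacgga
Ctsd: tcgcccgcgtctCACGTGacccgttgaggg
Glb1: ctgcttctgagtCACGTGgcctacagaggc
Ctsa: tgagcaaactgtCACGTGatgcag
Sgsh: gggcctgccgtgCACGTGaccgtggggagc
Mcoln1: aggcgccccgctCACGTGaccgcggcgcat

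A match to these letters is a description of the window and shows no binding. Genes with and without the motif were called at like shares in the comparison described next: in MyS3KO against Smad3fl with TGF-β1, 10 of 15 genes with the motif and 19 of 28 without it were called higher, with median log2 fold changes of 0.77 and 0.70. Untreated, 7 of 15 and 15 of 28 were called higher.

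MyS3KO against Smad3fl asks how targeting of Smad3 in myeloid cells relates to gene expression within the Smad3 line. Smad3 RNA was lower but still present in MyS3KO (268 CPM with TGF-β1, 184 untreated), so the extent of its loss cannot be read from these counts. MyS3KO also held more Smad3 RNA than the Smad2 line, in which Smad3 was not targeted. There Smad3 averaged 57.2 CPM in Smad2fl and 49.4 in MyS2KO with TGF-β1, and 41.5 and 31.3 untreated. Lysosomal genes were mostly higher in MyS3KO: 33 of 52 were called higher and 2 lower with TGF-β1, and 24 higher and 2 lower without it. Calls required an adjusted p below 0.05 in edgeR's quasi-likelihood test, with Benjamini-Hochberg adjustment over the 14261 genes that passed a filter on low counts, and all 52 were among these. Of all tested genes, 28.2% were called with TGF-β1 (15% higher, 13.2% lower) and 17.7% without it (8.37% higher, 9.38% lower). The median log2 fold change of the 52 genes was 0.61 with TGF-β1 and 0.47 untreated, where that of all genes was 0.01 and -0.03. Of the genes called higher, 23 were so in both treatments. The treated and untreated comparisons share no library but come from the same model. Deviations of treated and untreated Smad3fl libraries of the same number were also correlated (r 0.45, 0.34 and 0.33). The 2 comparisons are thus not independent of each other.

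**Figure D2:**
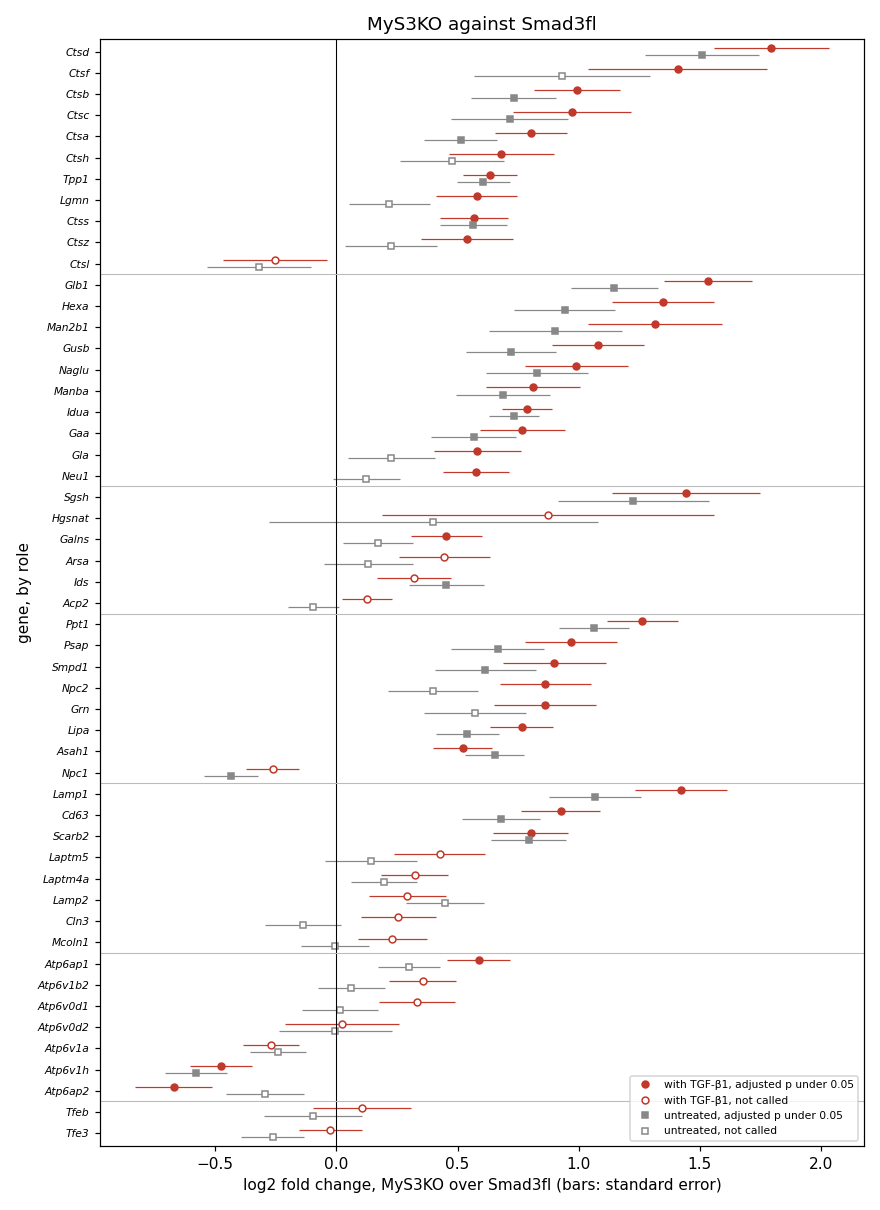
Log2 fold change of MyS3KO over Smad3fl (x axis) with its standard error for each of the 52 genes (y axis, by role), with TGF-β1 in red circles and untreated in grey squares, filled where the adjusted p was under 0.05. Ctsd reaches 1.80 with TGF-β1 and 1.51 untreated, glycosidases all lie right of 0, and most proton pump subunits lie around or left of it.

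Among the 11 proteases, 10 rose in MyS3KO with TGF-β1 and 6 without it. Ctsd, the main aspartic protease of lysosomes, had 3747, 3286 and 3675 CPM in MyS3KO and 862, 1007 and 1216 in Smad3fl with TGF-β1. Untreated, it had 2380, 3477 and 3697 CPM in MyS3KO and 814, 870 and 1672 in Smad3fl. The groups did not overlap in either treatment, and the highest Smad3fl value was library 3 each time. Its log2 fold change was 1.80 ± 0.24 with TGF-β1 (SE, adjusted p = 3.68e-05) and 1.51 ± 0.24 untreated (adjusted p = 0.000188). Ctsb, the most abundant member, had 16741, 13643 and 14295 CPM in MyS3KO and 6959, 7111 and 8379 in Smad3fl with TGF-β1, again without overlap, a log2 change of 0.99 ± 0.18 (adjusted p = 0.000509, and 0.73 ± 0.18 with adjusted p = 0.00614 untreated). Ctsa, which protects other lysosomal enzymes in a complex, Ctsc, which activates granule proteases, Ctss, which cuts the invariant chain in antigen presentation, and the tripeptidyl peptidase Tpp1 rose in both treatments, by 0.57 to 0.97 log2 with TGF-β1 and 0.51 to 0.72 untreated.

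Ctsf, Ctsh, Ctsz and the asparaginyl endopeptidase Lgmn were called with TGF-β1 only, at 1.41 ± 0.37, 0.68 ± 0.22, 0.54 ± 0.19 and 0.58 ± 0.17 log2. Untreated they stood at 0.93, 0.48, 0.22 and 0.22 log2 and were not called. That does not show a difference between treatments, since the interaction was not called for any of them. Ctsl, a cysteine protease close to Ctsb in function, was the exception in direction, with log2 changes of -0.25 ± 0.22 with TGF-β1 (adjusted p = 0.39) and -0.32 ± 0.22 untreated (adjusted p = 0.323). Its Smad3fl libraries were spread widely, with 3353, 2620 and 1756 CPM with TGF-β1 and 3340, 3205 and 1767 untreated, while MyS3KO lay between 1948 and 2444.

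All 10 glycosidases rose in MyS3KO with TGF-β1, and 8 of them did untreated. Hexa, the α subunit of hexosaminidase that degrades gangliosides, had 1446, 1135 and 1265 CPM in MyS3KO and 431, 490 and 590 in Smad3fl with TGF-β1, and 1141, 1354 and 1359 in MyS3KO and 490, 513 and 1002 in Smad3fl untreated. The untreated groups came close at Smad3fl library 3 but did not overlap. Its log2 change was 1.35 ± 0.21 with TGF-β1 (adjusted p = 0.000179) and 0.94 ± 0.21 untreated (adjusted p = 0.00339). Glb1, the β-galactosidase whose activity is used as a senescence stain, changed by 1.54 ± 0.18 and 1.15 ± 0.18 log2, with 238, 204 and 215 CPM in MyS3KO and 72.5, 72.3 and 82.4 in Smad3fl with TGF-β1. The α-mannosidase Man2b1 changed by 1.32 ± 0.28 log2 with TGF-β1 and 0.90 ± 0.28 untreated, and the β-glucuronidase Gusb by 1.08 ± 0.19 and 0.72 ± 0.19. Naglu and Idua, which act on heparan sulfate, the β-mannosidase Manba and the acid α-glucosidase Gaa, which degrades glycogen, rose by 0.77 to 0.99 log2 with TGF-β1 and 0.57 to 0.83 untreated. Gla, the α-galactosidase, and Neu1, the sialidase, rose with TGF-β1 by 0.58 ± 0.18 and 0.57 ± 0.14 log2 and were at 0.23 and 0.12 log2 untreated, not called.

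Of the 6 sulfatases and related enzymes, Sgsh was the largest change. It had 18.2, 24.9 and 32.2 CPM in MyS3KO and 9.56, 8.80 and 9.40 in Smad3fl with TGF-β1, and 5.25, 16.5 and 16.0 in MyS3KO and 5.03, 4.32 and 6.91 in Smad3fl untreated. The groups were apart with TGF-β1, whereas untreated MyS3KO library 1 lay among the Smad3fl libraries. Its log2 change was 1.44 ± 0.31 with TGF-β1 (adjusted p = 0.00199) and 1.23 ± 0.31 untreated (adjusted p = 0.00919). Galns, a sulfatase of keratan and chondroitin sulfate, rose with TGF-β1 by 0.45 ± 0.15 log2 and was at 0.17 untreated, not called. The iduronate sulfatase Ids rose untreated by 0.45 ± 0.15 and was at 0.32 with TGF-β1, not called, although its MyS3KO libraries lay above its Smad3fl libraries in both treatments. The arylsulfatase Arsa, the acetyltransferase Hgsnat and the acid phosphatase Acp2 were called in none of the 11 comparisons.

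Among lipid handling genes and precursors, 7 of 8 were higher in MyS3KO with TGF-β1, and 5 were higher and 1 lower untreated. Psap, the precursor of the saposins, which activate sphingolipid hydrolases, had 11687, 9603 and 10078 CPM in MyS3KO and 5050, 5122 and 5852 in Smad3fl with TGF-β1, a log2 change of 0.97 ± 0.19 (adjusted p = 0.00115), and of 0.67 ± 0.19 untreated (adjusted p = 0.0182). Ppt1, the palmitoyl-protein thioesterase, changed by 1.26 ± 0.15 and 1.06 ± 0.15 log2, the acid sphingomyelinase Smpd1 by 0.90 ± 0.21 and 0.61 ± 0.21, the acid lipase Lipa by 0.77 ± 0.13 and 0.54 ± 0.13, and the ceramidase Asah1 by 0.52 ± 0.12 and 0.65 ± 0.12. Grn and Npc2, the soluble cholesterol carrier, rose with TGF-β1 by 0.86 ± 0.21 and 0.86 ± 0.19 log2 and stood at 0.57 and 0.40 untreated, not called. Npc1, the membrane protein to which NPC2 hands cholesterol, went the other way: it had 350, 300 and 322 CPM in MyS3KO and 416, 462 and 436 in Smad3fl untreated, lower at -0.43 ± 0.11 log2 (adjusted p = 0.00868), and stood at -0.26 ± 0.11 with TGF-β1 (adjusted p = 0.0746).

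Membrane proteins split. Lamp1, the tetraspanin Cd63 and Scarb2, the receptor that carries glucocerebrosidase to lysosomes, rose in both treatments, and the other 5 were not called in either. Lamp1 had 2193, 1753 and 1933 CPM in MyS3KO and 680, 676 and 838 in Smad3fl with TGF-β1, and 1959, 2039 and 2074 in MyS3KO and 727, 719 and 1449 in Smad3fl untreated. Every MyS3KO library was above every Smad3fl library, and untreated Smad3fl library 3 lay about midway. The log2 change was 1.42 ± 0.19 with TGF-β1 (adjusted p = 4.12e-05) and 1.07 ± 0.19 untreated (adjusted p = 0.000579). Cd63 changed by 0.93 ± 0.16 and 0.68 ± 0.16 log2 and Scarb2 by 0.80 ± 0.16 and 0.79 ± 0.15. Lamp2, the close relative of Lamp1 that serves chaperone-mediated autophagy, was at 0.29 ± 0.16 with TGF-β1 (adjusted p = 0.172) and 0.45 ± 0.16 untreated (adjusted p = 0.0542). Laptm4a, Laptm5, the calcium channel gene Mcoln1 and Cln3 lay between 0.23 and 0.43 log2 with TGF-β1 and between -0.14 and 0.20 untreated.

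The proton pump gave a mixed picture. Of its 7 genes, the accessory subunit Atp6ap1 was higher in MyS3KO with TGF-β1 (0.59 ± 0.13 log2), and 2 genes were lower. Atp6v1h, a regulatory subunit of the cytosolic domain, had 165, 131 and 128 CPM in MyS3KO and 183, 224 and 183 in Smad3fl with TGF-β1, and 158, 117 and 132 in MyS3KO and 186, 222 and 198 in Smad3fl untreated, without overlap. It was lower, at -0.48 ± 0.13 log2 with TGF-β1 (adjusted p = 0.00941) and -0.58 ± 0.13 untreated (adjusted p = 0.00352). Atp6ap2, also called the prorenin receptor, was lower, at -0.67 ± 0.16 log2 with TGF-β1 (adjusted p = 0.0045). Atp6v0d2, an isoform high in osteoclasts and macrophages, was at 0.02 ± 0.23 log2 with TGF-β1 and 0.00 ± 0.23 untreated.

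Neither transcription factor was called in any comparison. Tfeb, the master regulator of lysosome biogenesis, had 23.4, 19.1 and 19.3 CPM in MyS3KO and 19.6, 20 and 17.8 in Smad3fl with TGF-β1, and 15.9, 18 and 20.3 in MyS3KO and 16.7, 21.4 and 19.9 in Smad3fl untreated. The groups overlapped, with log2 changes of 0.11 ± 0.20 (adjusted p = 0.726) and -0.10 ± 0.20 (adjusted p = 0.787). Its relative Tfe3 was at -0.03 ± 0.13 and -0.26 ± 0.13 log2 (adjusted p = 0.898 and 0.168). RNA levels say nothing of where these proteins are in the cell.

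**Figure D3:**
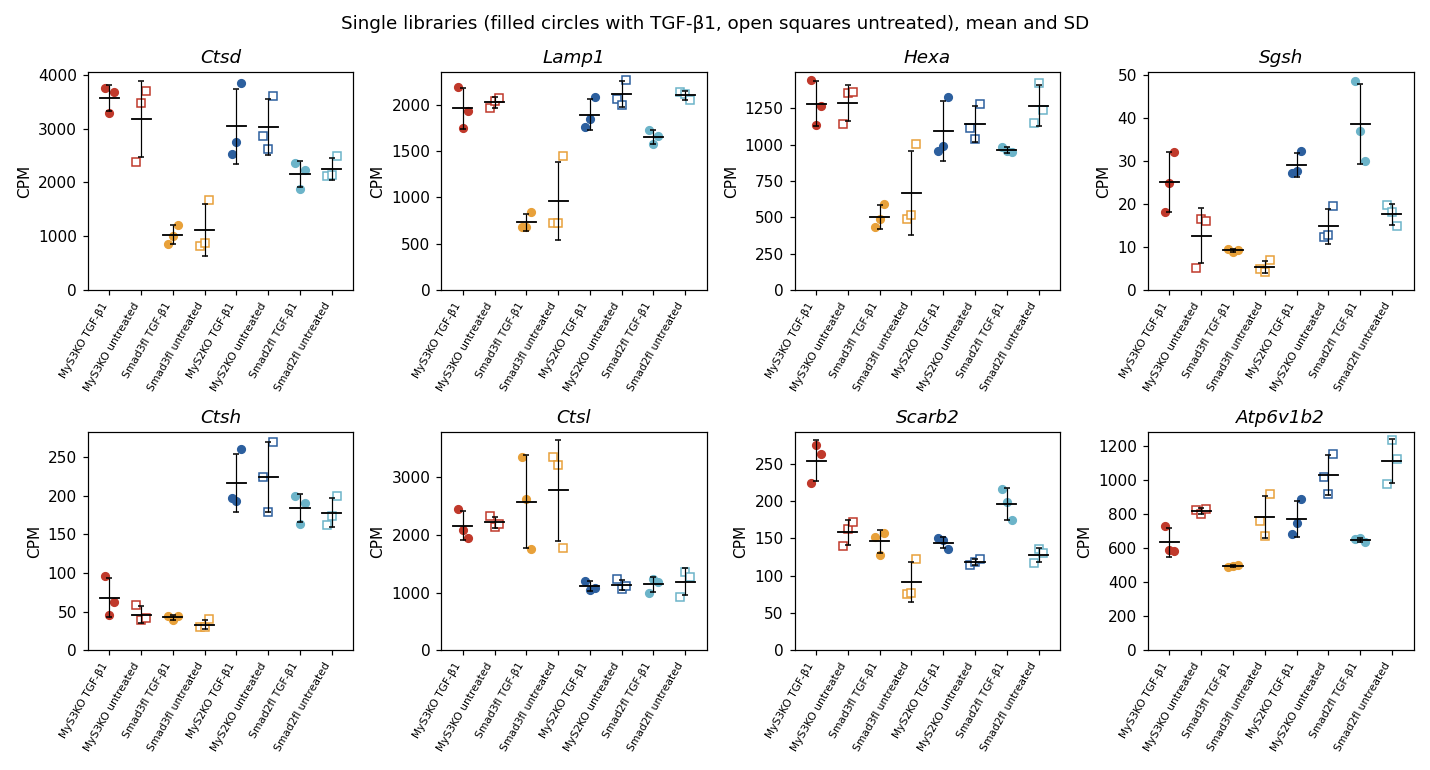
CPM of 8 genes in single libraries, with filled circles for TGF-β1 and open squares for untreated libraries, and the mean and SD of 3 libraries in black, in the 8 groups along the x axis. Ctsd, Lamp1 and Hexa are low in Smad3fl apart from its untreated library 3, Ctsh is low and Ctsl high in both genotypes of the Smad3 line, and Scarb2 and Atp6v1b2 move with TGF-β1.

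How firmly these calls stand differed by treatment. With TGF-β1, leaving out any of the 6 libraries left 29 to 36 calls. Untreated, 14 calls were left without Smad3fl library 2, 15 without MyS3KO library 3, 17 without Smad3fl library 1 and 17 without MyS3KO library 2, against 26 with all libraries, and 35 without Smad3fl library 3. With only the 2 untreated groups in the model, 2 members were called, Idua and Ppt1. Without both Smad3fl libraries numbered 3, all 26 and all 35 calls remained among 35 untreated and 38 with TGF-β1. Over all genes that setting gave 3500 calls untreated, against 2531 with all libraries, and 3889 with TGF-β1, against 4017. Counted without a model, all 3 MyS3KO libraries lay above all 3 Smad3fl libraries for 40 of 52 genes with TGF-β1 (23.1% of all genes) and for 18 untreated (10.8% of all genes), and below them for 4 (23.3% of all genes) and 3 (14.9% of all genes). The summed macrophage markers include Lyz2, whose locus carries the Cre in the knockouts, and Cd68, itself a gene of a lysosomal membrane protein. Their sum is thus no clean measure of macrophage content. It ran from 16800 to 24100 CPM in MyS3KO and 15100 to 18900 in Smad3fl with TGF-β1. Untreated, it ran from 18700 to 21900 in MyS3KO and 16500 to 28500 in Smad3fl. The endothelial list ran from 48.5 to 100 CPM in MyS3KO and 32.5 to 64.3 in Smad3fl with TGF-β1, and from 76.5 to 138 in MyS3KO and 42 to 120 in Smad3fl untreated. The osteoclast markers, among them genes of lysosomal enzymes, ran from 101 to 111 CPM in MyS3KO and 91.8 to 138 in Smad3fl with TGF-β1, and from 78 to 95.3 in MyS3KO and 94.1 to 160 in Smad3fl untreated. The part of these lists in the lysosomal differences was not tested.

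Reads of genes that overlap on opposite strands cannot be told apart here, because the library kit named in the protocol does not mark strand. Ppt1 overlaps Cap1, an actin regulator with 677% of its reads, Ctsa overlaps Pltp, Idua overlaps Dgkq, Cln3 overlaps Apobr, and Npc1 overlaps Rmc1. None of these 5 partners was called in MyS3KO against Smad3fl in either treatment.

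MyS2KO against Smad2fl asks the same of Smad2. No lysosomal gene was called in either treatment by edgeR's quasi-likelihood test, where 0.421% of all genes were called with TGF-β1 and 0.0701% untreated (0.0351% higher and 0.0351% lower), and DESeq2 called none either. At an unadjusted p under 0.05 there were 2 of 52 in each. With TGF-β1 these were Ctsd, at 0.50 ± 0.23 log2 (adjusted p = 0.514), and Scarb2, at -0.45 ± 0.15 (adjusted p = 0.28). Untreated they were Npc1, at -0.27 ± 0.11 (adjusted p = 0.469), and Atp6v0d1, at -0.33 ± 0.16 (adjusted p = 0.563). Medians over the 52 genes were 0.10 with TGF-β1 and -0.08 untreated. Lamp1 had 1756, 1842 and 2076 CPM in MyS2KO and 1724, 1571 and 1662 in Smad2fl with TGF-β1, and 2065, 1998 and 2266 in MyS2KO and 2132, 2118 and 2048 in Smad2fl untreated. With TGF-β1 all MyS2KO libraries lay above all Smad2fl libraries, at 0.20 ± 0.19 log2 and not called. The untreated groups overlapped, at 0.01 ± 0.19 log2. Since Smad2 RNA was not lower in the libraries labelled MyS2KO, the extent of its loss cannot be read from these counts. The difference between the knockout effects of the lines, a contrast added after seeing the data, was called for 18 of 52 genes with TGF-β1, all with a higher effect in the Smad3 line (7.09% of all genes, 3.83% higher and 3.26% lower), and for 9 untreated, again all higher (4.93% of all genes, 2.09% and 2.84%). The floxed controls enter this contrast too.

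The response to TGF-β1 for 4 hours was counted first with libraries taken as unpaired. In MyS3KO 3 of 52 were higher and none lower, where 10% of all genes were called (6.54% higher, 3.47% lower). In Smad3fl 1 was higher and 2 lower (12% of all genes, 6.38% and 5.64%). In MyS2KO 1 was higher and none lower (3.41% of all genes, 2.9% and 0.505%), and in Smad2fl 2 were higher and 2 lower (11.1% of all genes, 7.37% and 3.74%). Deviations of same-number libraries correlated above 0.1 in every pair in Smad3fl and MyS2KO, though MyS2KO treated library 1 correlated better with untreated library 2. With a term for the number as a replicate block, 13 of 52 genes (25%) were called in Smad3fl, 4 higher and 9 lower, where 23.2% of all genes were called. In MyS2KO 3 of 52 (5.77%) were called, Npc1 and Sgsh higher and Atp6v1b2 lower, where 7.24% of all genes were. The block gave 14 of 52 in Smad2fl (26.9%, where 22.7% of all genes were called) and 10 in MyS3KO (19.2%, where 19.3% were). With or without the block, the shares in Smad3fl, MyS2KO and MyS3KO were near or below those of all genes. In Smad2fl the share was below that of all genes without the block and above it with the block. The split of all genes by direction with the block is not given here. The genes called without the block were Scarb2, Sgsh, Npc1, Atp6v1b2 and Atp6v0d1. Log2 changes and adjusted p-values of single genes below are from the fit without the block, also where the numbers were taken to pair the samples. Medians over the 52 genes were 0.01, -0.21, -0.04 and -0.19 log2 in MyS3KO, Smad3fl, MyS2KO and Smad2fl.

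**Figure D4:**
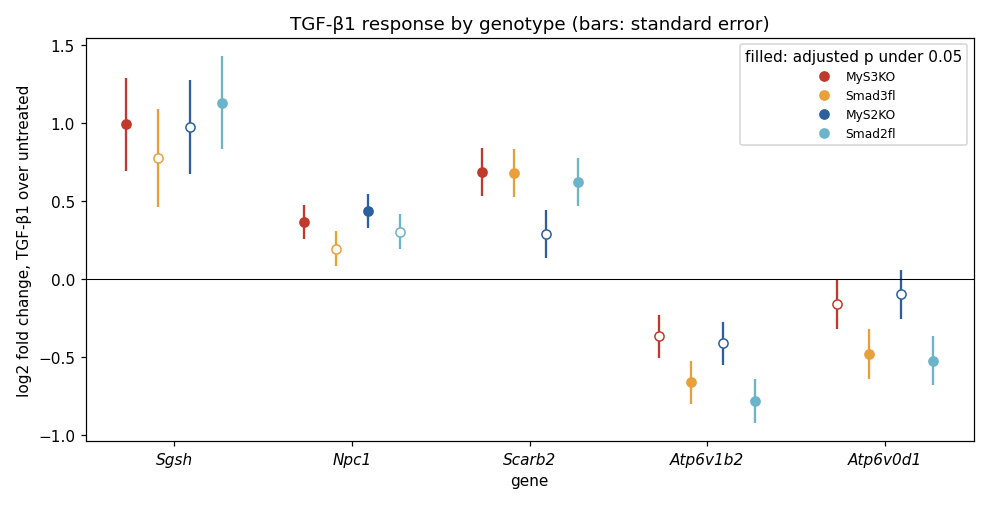
Log2 fold change of TGF-β1 over untreated (y axis) with its standard error, in the fit without the block, in the 4 genotypes (colours). Shown are the 5 genes called in at least 1 genotype by that fit (x axis), filled where its adjusted p was under 0.05. Sgsh, Npc1 and Scarb2 are above 0 and Atp6v1b2 and Atp6v0d1 below it in every genotype.

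Scarb2 had 223, 275 and 263 CPM with TGF-β1 and 139, 162 and 172 untreated in MyS3KO, 152, 128 and 158 against 75.0, 76.4 and 122 in Smad3fl, 150, 147 and 135 against 115, 118 and 122 in MyS2KO, and 216, 199 and 174 against 117, 136 and 130 in Smad2fl. Treated libraries lay above untreated ones in each of the 4 genotypes. It rose by 0.69 ± 0.15 log2 in MyS3KO (adjusted p = 0.00439), 0.68 ± 0.15 in Smad3fl (adjusted p = 0.0042) and 0.62 ± 0.15 in Smad2fl (adjusted p = 0.009), and stood at 0.29 ± 0.15 in MyS2KO (adjusted p = 0.508). Sgsh had 48.5, 37.0 and 30.1 CPM with TGF-β1 and 19.8, 18.1 and 14.9 untreated in Smad2fl, a rise of 1.13 ± 0.30 log2 (adjusted p = 0.0137). It rose by 0.99 ± 0.30 in MyS3KO (adjusted p = 0.0369) and stood at 0.97 ± 0.30 in MyS2KO (adjusted p = 0.0875) and 0.77 ± 0.31 in Smad3fl (adjusted p = 0.12). With the block, Sgsh was called higher in MyS2KO. Npc1 rose by 0.43 ± 0.11 log2 in MyS2KO (adjusted p = 0.0242) and 0.36 ± 0.11 in MyS3KO (adjusted p = 0.0354), and stood at 0.30 ± 0.11 in Smad2fl and 0.19 ± 0.11 in Smad3fl.

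The 2 genes that fell with TGF-β1 in the unpaired model were proton pump subunits. Atp6v1b2, the B subunit of the ATP-hydrolysing ring, had 651, 657 and 635 CPM with TGF-β1 and 977, 1237 and 1127 untreated in Smad2fl, and 492, 495 and 499 against 760, 672 and 920 in Smad3fl. It had 682, 749 and 890 against 1017, 917 and 1156 in MyS2KO, and 731, 588 and 583 against 824, 800 and 831 in MyS3KO. Treated libraries lay below all untreated ones in each of the 4 genotypes. Its log2 change was -0.78 ± 0.14 in Smad2fl (adjusted p = 0.000363) and -0.66 ± 0.14 in Smad3fl (adjusted p = 0.00177), and -0.41 ± 0.14 in MyS2KO (adjusted p = 0.13) and -0.37 ± 0.14 in MyS3KO (adjusted p = 0.0996). With the block, Atp6v1b2 was called lower in MyS2KO. Atp6v0d1, a stalk subunit, changed by -0.52 ± 0.16 in Smad2fl (adjusted p = 0.0329) and -0.48 ± 0.16 in Smad3fl (adjusted p = 0.0499), and by -0.10 ± 0.16 in MyS2KO and -0.16 ± 0.16 in MyS3KO. Of the always-named members, Ctsb, Ctsd, Ctsl, Lamp1, Lamp2, Tfeb, Tfe3 and Atp6v0d2 were called in no genotype without the block, and with it Atp6v0d2 was called lower in Smad3fl.

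Single libraries carried several of the few unpaired calls. In Smad2fl 1 call was left without TGF-β1 library 1 and 2 without untreated library 3. In MyS2KO no gene was called without library 1 or 2 of either treatment, and without TGF-β1 library 3 Atp6v1b2 was called in place of Npc1. In Smad3fl 8 and 5 were called without untreated libraries 1 and 2, and in MyS3KO 1 was left without TGF-β1 library 3. Atp6v1b2 was called in every such run in both floxed genotypes, and Scarb2 in every run in both genotypes of the Smad3 line.

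The interaction asks whether the response to TGF-β1 differed between knockout and floxed macrophages. No lysosomal gene was called in the Smad3 line (0.021% of all genes) or the Smad2 line (0.00701% of all genes), and DESeq2 called none in either. At an unadjusted p under 0.05 stood 1 gene in the Smad3 line, Neu1, with a difference of responses of 0.45 ± 0.19 log2 (adjusted p = 0.728), and none in the Smad2 line. The medians were 0.25 in the Smad3 line, where all genes had 0.07, and 0.15 in the Smad2 line, where all genes had 0.01. For Atp6v1b2 the interaction was 0.29 ± 0.19 log2 in the Smad3 line (adjusted p = 0.728) and 0.37 ± 0.19 in the Smad2 line (adjusted p = 1.0), so the smaller response in the knockouts was not separated from that in their controls.

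Set against the other floxed line, untreated Smad3fl had 30 of 52 lysosomal genes lower and 5 higher than untreated Smad2fl (15.6% and 17.7% of all genes, 33.4% called in all). Lower genes included 9 of 11 proteases, 7 of 10 glycosidases and 7 of 8 lipid handling genes and precursors. The largest was Ctsh, an aminopeptidase, with 29.6, 30.1 and 40.2 CPM in Smad3fl and 162, 174 and 199 in Smad2fl, a log2 change of -2.42 ± 0.23 (adjusted p = 1.16e-07). It was followed by Sgsh at -1.70 ± 0.31 (adjusted p = 0.000364), Ctsf at -1.57 ± 0.36, Lamp1 at -1.12 ± 0.19, Ctsc at -1.05 ± 0.24, Ctsd at -1.01 ± 0.23, Ppt1 at -1.0 ± 0.15, Hexa at -0.92 ± 0.21, Glb1 at -0.90 ± 0.18 and Grn at -0.88 ± 0.21. The genes higher in Smad3fl were Ctsl at 1.23 ± 0.22 (adjusted p = 0.000268), Atp6ap2 at 0.59 ± 0.16, Atp6v1a, the catalytic subunit of the pump, at 0.56 ± 0.12, Atp6v1h at 0.56 ± 0.13 and Npc1 at 0.51 ± 0.11. Atp6v1b2 and Laptm5, a lysosomal membrane protein of blood cells, were lower, at -0.51 ± 0.14 and -0.53 ± 0.19. The summed macrophage markers, with Lyz2 and Cd68 among them, ran from 16500 to 28500 CPM in untreated Smad3fl and 26600 to 31000 in untreated Smad2fl. With TGF-β1 they ran from 15100 to 18900 in Smad3fl and 22600 to 24000 in Smad2fl. The endothelial list ran from 42 to 120 CPM in untreated Smad3fl and 104 to 132 in untreated Smad2fl, and from 32.5 to 64.3 in Smad3fl and 77.7 to 88.4 in Smad2fl with TGF-β1. The part of these lists in the lysosomal differences was not tested. With TGF-β1 the same comparison, added after seeing the data, gave 31 lower and 5 higher (25.3% of all genes called, 13.3% lower and 12% higher). With only the untreated groups in the model 16 of the 35 untreated calls were left.

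Smad3fl had the lowest mean of the 4 genotypes for 42 of the 52 genes with TGF-β1 and for 39 untreated, where it was lowest for 36.5% and 33.0% of all genes. With TGF-β1, all 3 Smad3fl libraries lay below all 9 others for 34 of the 52 genes (13.9% of all genes), among them all 10 glycosidases, and untreated for 13 (5.83% of all genes). They lay above all 9 others for Atp6ap2, Atp6v1a, Atp6v1h and Npc1 with TGF-β1 (4 genes, 14.7% of all genes) and for Atp6v1h and Npc1 untreated (2 genes, 8.17% of all genes). The knockouts of the 2 lines stood closer to each other: MyS3KO against MyS2KO, a comparison added after seeing the data, gave 3 genes higher and 1 lower in each treatment (6.72% of all genes with TGF-β1, 3.65% higher and 3.06% lower, and 5.97% untreated, 3.35% and 2.62%). Ctsl was higher in MyS3KO by 0.96 ± 0.22 log2 with TGF-β1 and 0.96 ± 0.22 untreated, and Ids by 0.56 ± 0.15 and 0.59 ± 0.15. Scarb2 was higher with TGF-β1 by 0.82 ± 0.15 and Asah1 untreated by 0.43 ± 0.12. Ctsh was lower, at -1.67 ± 0.22 and -2.28 ± 0.22. Low Ctsh and high Ctsl were thus present in both genotypes of the Smad3 line. Smad3fl and Smad2fl differ in the floxed allele and in Smad3 RNA, and what belongs to the line and what to Smad3 in the low values of Smad3fl cannot be told apart.

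**Figure D5:**
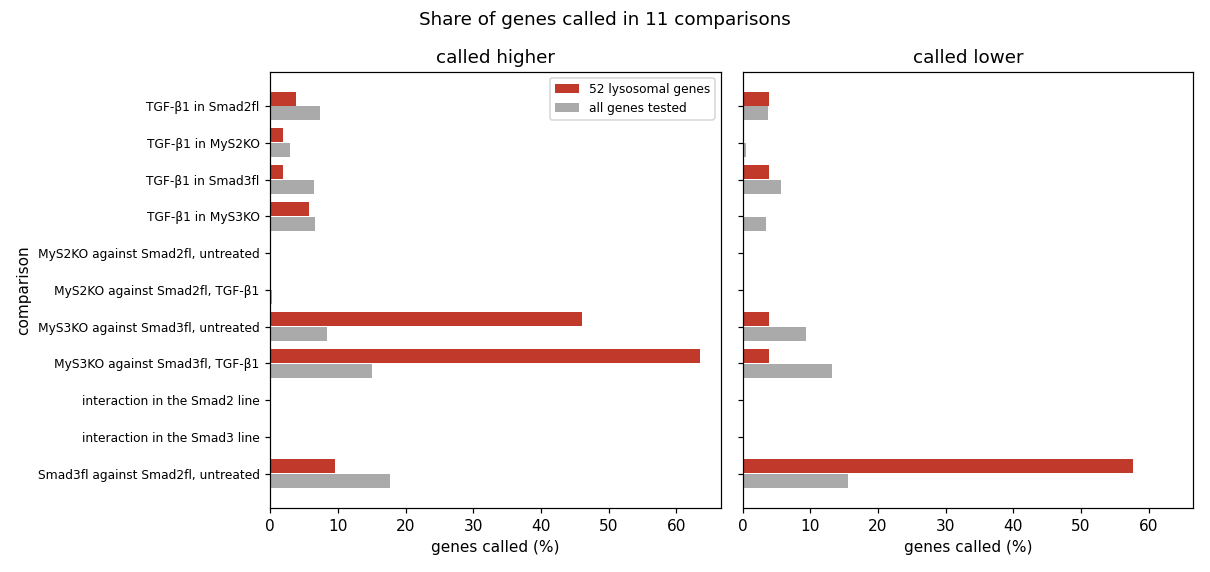
Percent of the 52 lysosomal genes (red) and of all 14261 tested genes (grey) called higher (left) and lower (right) in the 11 comparisons (y axis). The red bars exceed the grey ones on the higher side in both comparisons of MyS3KO against Smad3fl and on the lower side in untreated Smad3fl against Smad2fl, which shares the untreated Smad3fl libraries with the untreated one of these.

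Lists of other lysosomal genes, taken by name but with earlier results of these data known, were counted in MyS3KO against Smad3fl. There 28.2% of all genes were called with TGF-β1 and 17.7% untreated. The lists were counted in the same libraries as the main set, so they are no independent check of it. Of 27 other enzymes and their processing genes, 19 were higher and 1 lower in MyS3KO than Smad3fl with TGF-β1, and 15 higher and none lower untreated (74.1% and 55.6% called). Arsb, the arylsulfatase of dermatan and chondroitin sulfate, had 68.2, 49.7 and 53.9 CPM in MyS3KO and 0.770, 1.01 and 1.79 in Smad3fl with TGF-β1, and 65.3, 59.1 and 59.9 in MyS3KO and 0.678, 0.766 and 1.64 in Smad3fl untreated. The other genotypes lay between 2.15 and 6.94 CPM, so MyS3KO was the group apart for this gene. The log2 changes were 5.61 ± 0.33 and 5.91 ± 0.33 (adjusted p = 2.38e-10 and 1.03e-10). Ctse, an aspartic protease, changed by 1.95 ± 0.45 and 1.75 ± 0.43 log2 at levels of at most 2.86 CPM, and Gm2a, the activator of hexosaminidase, by 1.59 ± 0.23 with TGF-β1 and 1.21 ± 0.23 untreated. The tartrate-resistant phosphatase Acp5 changed by 1.5 ± 0.40 and 1.58 ± 0.40. The gene that was lower with TGF-β1 was the cytosolic peptidase Tpp2, at -0.49 ± 0.16.

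Of 23 other membrane proteins and transporters, 9 were higher with TGF-β1, led by Mfsd12, Gpnmb and Tmem192 at 1.22 ± 0.31, 1.21 ± 0.20 and 0.85 ± 0.20 log2, and 5 were higher and 2 lower untreated, led by Slc38a9 at 0.86 ± 0.20 and Gpnmb at 0.83 ± 0.20 (39.1% and 30.4% called). The 2 lower ones were Slc15a3 at -0.59 ± 0.19 and the calcium channel Tpcn2 at -0.55 ± 0.12. Of 13 other pump genes 4 were higher with TGF-β1, among them Tmem9 at 1.48 ± 0.35 and Atp6v0a2 at 0.83 ± 0.15, and 1 untreated, Atp6v0a2 at 0.47 ± 0.15 (30.8% and 7.69% called, near and below the shares of all genes). In the sorting list of 22, 5 were higher and 2 lower with TGF-β1 and 1 and 1 untreated (31.8% and 9.09%, likewise near and below). There Sort1, a sorting receptor for hydrolases and sphingolipid activators, had 20, 19.4 and 23.9 CPM in MyS3KO and 6.80, 3.74 and 4.81 in Smad3fl with TGF-β1, and changed by 2.05 ± 0.23 log2, and by 2.02 ± 0.23 untreated. Of 18 genes of TFEB control and mTORC1, 4 were higher and 4 lower with TGF-β1 and 2 and 2 untreated (44.4% and 22.2%). Lamtor2, a scaffold subunit of the Ragulator complex, was higher by 1.30 ± 0.28 and 1.25 ± 0.27 log2, Fnip1 lower at -1.09 ± 0.30 with TGF-β1, and Rheb lower at -0.79 ± 0.14 and -0.63 ± 0.14. Of 21 autophagy genes 7 were higher and 1 lower with TGF-β1, with Ulk1 at 0.94 ± 0.17, and 2 were higher and 1 lower untreated, with the receptor gene Sqstm1 at -0.99 ± 0.25 (38.1% and 14.3%). Of 4 tested inhibitors, the cystatin Cst3 was higher by 1.13 ± 0.24 and 0.69 ± 0.24 log2 and Cst7 by 1.22 ± 0.37 with TGF-β1.

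Most genes of these lists were not called for TGF-β1 either. Of the 27 other enzymes 3 were called in each of MyS3KO, Smad3fl and Smad2fl (11.1%) and 2 in MyS2KO (7.41%), and of the 23 other membrane proteins and transporters 3 were called in MyS3KO (13%), 2 in Smad3fl (8.7%), 1 in MyS2KO (4.35%) and 4 in Smad2fl (17.4%), where 10%, 12%, 3.41% and 11.1% of all genes were called in these 4 genotypes. In the same order of genotypes, 9.09%, 18.2%, 0% and 13.6% of the sorting list were called, and 9.52%, 19%, 0% and 4.76% of the autophagy list. For TFEB control and mTORC1 the shares were 11.1%, 11.1%, 0% and 5.56%, and for the other pump genes 7.69%, 15.4%, 0% and 15.4%. None of the 4 tested inhibitors was called. Genes with large changes in these lists are described next. Slc36a1, a transporter that carries amino acids out of lysosomes, had 55.1, 59.8 and 68.6 CPM with TGF-β1 and 20.6, 24.6 and 25.9 untreated in MyS3KO, and rose by 1.37 ± 0.14 log2 in MyS3KO, 1.41 ± 0.14 in Smad3fl, 1.01 ± 0.14 in MyS2KO and 1.47 ± 0.14 in Smad2fl. Gnptab, which makes the mannose 6-phosphate tag that directs hydrolases to lysosomes, rose by 1.25 ± 0.14, 1.36 ± 0.14, 0.73 ± 0.14 and 1.15 ± 0.14 log2 in the same order of genotypes. The phospholipase Pla2g15 rose in MyS3KO, Smad3fl and Smad2fl by 1.05 ± 0.26, 1.15 ± 0.26 and 0.98 ± 0.26 log2. Igf2r, a receptor for the tag, rose in MyS3KO, Smad3fl and Smad2fl by 0.61 ± 0.16, 0.63 ± 0.16 and 0.76 ± 0.16, and the phagophore gene Wipi1 by 1.15 ± 0.23, 1.37 ± 0.23 and 1.37 ± 0.23. Tfec, a relative of Tfeb, fell in these 3 genotypes, at -1.21 ± 0.22, -0.97 ± 0.21 and -0.83 ± 0.22 log2, as did the calcium channel Tpcn1, at -0.68 ± 0.16, -0.99 ± 0.16 and -0.77 ± 0.16. In MyS2KO against Smad2fl no gene of these lists was called in either treatment.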

How the data were processed

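Read counts per gene and FPKM were deposited by the authors for 24 libraries. The submitters' processing notes name TopHat2 2.0.9, HTSeq 0.6.1, Cufflinks 2.1.1 and the mouse builds mm10 and GRCm38.p6; the sources used here do not say which tool made which value or how reads were counted. The protocol speaks of fewer libraries than were deposited, so whether samples were pooled is not known. FPKM served only for levels between genes.

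Counts were tested with edgeR 4.0.16 in R 4.3.3 (limma 3.58.1 installed with it): TMM scaling, filterByExpr (14261 of 54532 genes kept, among them all 52), one mean per group over 8 groups, 16 residual degrees of freedom, quasi-likelihood F tests, two-sided, with Benjamini-Hochberg adjustment over all genes tested and a call at 0.05. Of 54532 genes, 26189 had no read. Errors after ± are standard errors of log2 fold changes unless marked SD. The median biological coefficient of variation was 21.2%. Scripts were tested on simulated data. Python 3.11.15 and pandas 2.3.3 summarised results. DESeq2 1.42.0, other scalings, no low-count filter, only the compared groups, a replicate block and leaving out libraries were alternatives.

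The 52 genes, the lists and the tests were chosen with earlier results of these data known. Genes named are all members called in at least 1 of 11 comparisons (the 10 with the largest change in each direction where more than 20 were called), 8 members always named (Tfeb, Tfe3, Atp6v0d2, Lamp1, Lamp2, Ctsb, Ctsd and Ctsl), and of each other list up to 3 called genes per comparison; Tpp2, Acp5 with TGF-β1 and Gm2a untreated were named after their values were seen. Comparisons between knockouts of the 2 lines, between floxed lines with TGF-β1, and of knockout effects were added after seeing the data. Within groups, no 2 libraries were copies of each other (chi-square per gene at least 6.25), which does not show that they came from separate samples. Untreated MyS3KO libraries 2 and 3 stood at 6.25, and library 1 at 78.8 and 73.7 from them. With TGF-β1 these values were 13.1, 65.9 and 74.9. Untreated MyS2KO libraries 1 and 2 stood at 10.8, and library 3 at 37.6 and 69.6 from them. Replicate numbers come from the labels; deviations of treated and untreated libraries with the same number correlated above 0.1 in every pair in Smad3fl (0.45, 0.34, 0.33) and MyS2KO (0.15, 0.22, 0.41), so there the numbers were taken to pair the samples.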

Additional observations from a re-analysis of the deposited data

Results flagged for a closer look

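The effect of the knockout differed between the lines for several enzymes and membrane proteins, tested as the MyS3KO over Smad3fl change minus the MyS2KO over Smad2fl change in the same model, a contrast added after seeing the data. With TGF-β1, 18 of the 52 genes had a larger change in the Smad3 line and none a smaller one (3.83% and 3.26% of all genes), and untreated 9 and none (2.09% and 2.84% of all genes). With TGF-β1 the difference was largest for Sgsh, at 1.85 log2 (1.44 in the Smad3 line, -0.41 in the Smad2 line, adjusted p = 0.013). It was 1.36 for Glb1 (1.53 and 0.17, adjusted p = 0.00388), 1.25 for Scarb2 (0.80 and -0.45, adjusted p = 0.00272) and 1.23 for Lamp1 (1.42 and 0.20, adjusted p = 0.0105). The others with TGF-β1 were Ctsd at 1.3, Man2b1 at 1.3, Hexa at 1.17, Ppt1 at 1.04, Gusb at 0.96, Manba at 0.95, Psap at 0.92, Cd63 at 0.88, Ctsb at 0.87, Ctss at 0.76, Asah1 at 0.7, Idua at 0.67, Tpp1 at 0.67 and Lipa at 0.61. Untreated, the differences were 1.09 for Hexa, 1.07 for Manba, 1.06 for Lamp1 (1.07 in the Smad3 line, 0.01 in the Smad2 line), 1.05 for Glb1, 0.9 for Scarb2, 0.84 for Asah1, 0.84 for Ppt1, 0.63 for Tpp1 and 0.59 for Idua. The floxed controls of the lines differ in these genes, and the test does not tell a difference of knockouts from a difference of controls.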

How the results depend on the processing

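Calls kept their direction under every alternative run. With the replicate block, calls numbered 14 in Smad2fl, 3 in MyS2KO, 13 in Smad3fl and 10 in MyS3KO for TGF-β1, against 4, 1, 3 and 3 without it. Deviations of same-number libraries did not all correlate above 0.1 in Smad2fl (r 0.05, 0.13, 0.16) and MyS3KO (r 0.41, 0.04, 0.29). Every library correlated best with its own number in Smad3fl and Smad2fl. That did not hold in MyS2KO, where treated library 1 did so with untreated library 2 (0.20 against 0.15), nor in MyS3KO. These 2 rules thus part in Smad2fl and MyS2KO. With the block 22.7% of all genes were called in Smad2fl and 19.3% in MyS3KO, against 26.9% and 19.2% of the 52. The block changed no other count by over 1.5 times among these 52 genes. For TGF-β1 in Smad2fl, DESeq2 gave 7 calls and only the compared groups 7. For MyS2KO, library totals gave 2 and DESeq2 3. For Smad3fl, no filter gave 6. For MyS3KO, library totals gave 5, only the compared groups 1, and leaving out both libraries numbered 1 gave 1. MyS2KO against Smad2fl gave 1 call in each treatment with no filter, Hgsnat. MyS3KO against Smad3fl untreated gave 2 calls, and Smad3fl against Smad2fl 16, with only the compared groups. Leaving out each library gave 1 to 4 calls for TGF-β1 in Smad2fl, 0 to 1 in MyS2KO, 2 to 8 in Smad3fl, 1 to 3 in MyS3KO, 14 to 35 and 29 to 36 for MyS3KO against Smad3fl untreated and with TGF-β1, and 24 to 41 for Smad3fl against Smad2fl. The cause of these moves was not tested.

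Over all genes, the block gave 3237, 1032, 3306 and 2749 calls for TGF-β1 in Smad2fl, MyS2KO, Smad3fl and MyS3KO, against 1584, 486, 1714 and 1428. Only the compared groups gave 1004 in Smad3fl and 893 in MyS3KO for TGF-β1, 256 against 2531 for MyS3KO against Smad3fl untreated and 2209 against 4762 for the floxed lines. Smad3fl without number 3 gave 978 for TGF-β1. For TGF-β1 in Smad2fl, DESeq2 gave 1954 and only the compared groups 2058. In MyS2KO library totals gave 467 and DESeq2 619, and in Smad3fl no filter gave 2017. In MyS3KO library totals gave 1402, and leaving out both libraries numbered 1 gave 1030. MyS2KO against Smad2fl untreated had 10 calls, with no filter 161, DESeq2 92, only the compared groups 0 and the block 19, and with TGF-β1 60, with no filter 313, DESeq2 218 and only the compared groups 271. The interaction in the Smad2 line had 1, with library totals 2, no filter 13, DESeq2 8, only the compared groups 0 and the block 2. In the Smad3 line it had 3, with DESeq2 size factors 1, library totals 0, no filter 161, DESeq2 15, only the compared groups 0, the block 6 and without both MyS3KO libraries numbered 1 0. Leaving out each library gave 2219 to 3318 calls for MyS3KO against Smad3fl with TGF-β1 (4017 with all) and 1367 to 3577 untreated, 2744 to 5970 for the floxed lines, 0 to 57 and 2 to 12 for MyS2KO against Smad2fl with TGF-β1 and untreated, 1057 to 1569, 316 to 451, 1136 to 1993 and 914 to 1557 for TGF-β1 in Smad2fl, MyS2KO, Smad3fl and MyS3KO, and 0 to 1 and 0 to 6 for the interactions in the Smad2 and Smad3 lines.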

Other observations

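Hgsnat, the acetyltransferase of heparan sulfate breakdown, varied with library number in both knockouts and in Smad2fl, and was singled out after its values were seen. MyS3KO library 1 had 825 CPM with TGF-β1 and 827 untreated, where the other MyS3KO libraries lay between 308 and 440. MyS2KO library 1 had 24.1 CPM with TGF-β1 and 29.8 untreated, where the other MyS2KO libraries lay between 262 and 433. In these knockouts the deviation was shared by the treated and untreated library of a number. Smad2fl library 3 was likewise low in both treatments, at 244 CPM with TGF-β1 and 315 untreated, where the other Smad2fl libraries lay between 409 and 588. Smad3fl showed no such pattern, with 275, 276 and 273 CPM with TGF-β1 and 370, 464 and 451 untreated. Hgsnat was called in none of the 11 comparisons, and with the replicate block it was called for TGF-β1 in Smad3fl and Smad2fl.

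In MyS3KO library 1, the autophagy receptor gene Sqstm1 stood apart likewise, at 4595 CPM with TGF-β1 and 3225 untreated, against 2084 to 2332 in the other MyS3KO libraries.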
